A study of Saccharomyces cerevisiae with 30 samples.

Results

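The step described here is the last one of a yeast time course in control cells: RNA of CEN4 cells at 180 min after beta-estradiol was set against RNA of the same strain at 120 min. It covers 6 of the 30 libraries of the series, 3 at each time, chosen by the strain and time that the labels give. The study sequenced total RNA of 2 haploid MATa strains of the S288c background before beta-estradiol (0 min) and 30, 60, 120 and 180 min after it. In one strain lox sites flank the centromere of chromosome IV (CEN4* before excision, cen4- once Cre has removed the centromere). The CEN4 strain has no such sites and served as its control. The CEN4 cells carried Cre-EBD78, a recombinase that beta-estradiol switches on, under a GDP promoter at ura3 with LEU2 as its marker, and the alleles ura3-delta-0, met15-delta-0, leu2-delta-0 and his3-delta-1. Cultures for both times had been kept in YPD, a rich medium with glucose, at 30 °C and had received 1 µM beta-estradiol. Cre was therefore on at both times and in both strains, and the step holds 60 min of further culture with no change of agent that the labels record. The samples are whole cultures of unsorted cells from 3 independent experiments. The p-values rest on a spread between replicate libraries that was estimated for each gene over all 10 groups of the series. They do not rest on the 6 libraries of this step alone.

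As background, yeast cells growing in glucose medium use up nutrients and shift their transcription as they do so. Stress and reserve-carbohydrate genes under Msn2 and Msn4, respiratory genes, ribosome production, and the synthesis of amino acids, one-carbon units and purines are each known to respond as whole groups to nutrient supply. Haploid a cells also transcribe a set of a-specific genes and pheromone-response genes through the factor Ste12, and many cell-cycle genes are transcribed in waves, through MBF and SBF at the start of S phase and through Fkh2 and Mcm1 in G2 and M.

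The 6 libraries held 8218002 to 11118118 reads on genes, and the smallest library of the series was among them. Replicates at 120 min differed by more than counting noise (chi-square per degree of freedom 3.82 to 5.92 for the 3 pairs), and so did replicates at 180 min (1.77 to 2.71). The first principal component of the 6 libraries held 36.7% of the variance and separated the times. The second held 20.1% and separated replicates 2 and 3 of the 120 min group (scores -7.9 and 7.14). URA3 and MET17 (the gene deleted in met15-delta-0) were listed at 0 in all 6 libraries, which means that no read was counted. By counting error a count of 0 still allows an expected number of up to 3 reads in each library. LEU2 and HIS3 were read at both times and were not called.

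The defining genes of a cells were read in all 6 libraries. STE2, the receptor for alpha-factor, stood at 12960 ± 398 (SD, n = 3) normalised counts at 120 min and 14850 ± 213 at 180 min. The 5 alpha-cell genes were not at 0: MF(ALPHA)1, which encodes alpha-factor, stood at 8.11 ± 1.27 counts at 120 min and 16.4 ± 4.0 at 180 min, SAG1, the alpha-agglutinin, at 420 ± 16.9 and 438 ± 20.6, and none of the 5 was called. STE3 and AFB1, also on that list, overlap other reading frames.

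The change was broad and small. A gene was called when its Benjamini-Hochberg adjusted p from limma, over the 5948 genes that averaged 10 or more normalised counts, was below 0.05. Of these genes 941 were called (15.8%), 451 that rose (7.58%) and 490 that fell (8.24%), while 1659 had an unadjusted p below 0.05. The median size of a called change was 0.20 on the log2 scale, with a median standard error of 0.06, and the median change of all tested genes was 0.00. That last median is largely set by the authors' size factors, which scale the libraries to a common typical gene, so it is not a result. At least 2-fold changes were called for 7 genes (PRM6, FIG1, GCV1, YLR108C and 3 genes with under 50 normalised counts) and at least 1.5-fold changes for 42. The 3 libraries of one time lay all above those of the other for 787 genes that were higher at 180 min (13.2%) and 849 that were lower (14.3%). Leaving out 1 library at a time gave 669 to 967 calls.

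**Figure D1:**
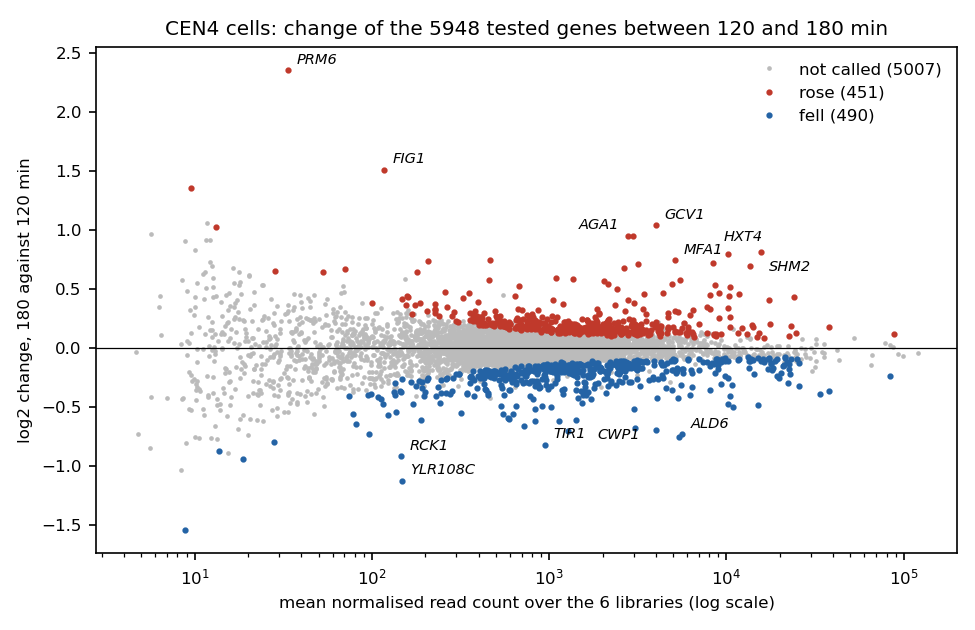
Each point is 1 of the 5948 tested genes, with its mean normalised read count over the 6 libraries on a log axis and its log2 change at 180 against 120 min on the vertical axis. Red points are the 451 genes that rose and blue points the 490 that fell, and PRM6 and FIG1 stand above the other labelled genes.

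The largest rises and falls, taken among genes with at least 50 normalised counts in the higher group and with no overlap between the times, belong to known pathways in part. Lack of overlap was a condition of this naming rule, so it is not a result for these genes. The promoters of the 3 largest rises and the 3 largest falls are printed because they let a reader see which factor motifs stand before the genes that moved most. Each runs from 250 bases before the coding start to 50 bases into the gene, on the gene's strand, 5′ to 3′, from RefSeq R64. Capitals mark matches on either strand to 11 motifs, each named by its usual factor. For nutrient and stress factors the motifs were AGGGG for Msn2 and Msn4, GATAAG for the GATA factors of nitrogen repression and TTCNNGAA for the heat shock factor Hsf1. For biosynthesis and respiration they were TGACTC for Gcn4 and Bas1, CACGTG for Pho4, Cbf1 and Tye7, CCAAT for the Hap complex and TCGTATA for the sterol regulator Upc2. The PAC motif of ribosome biogenesis genes was searched as GCGATGAG. For mating and the cell cycle they were TGAAACA for Ste12, ACGCGT for the factor MBF and CGCGAAA for the factor SBF. No motif is contained in another one of the 11.
PRM6 promoter, chrXIII:181026-181325, minus strand: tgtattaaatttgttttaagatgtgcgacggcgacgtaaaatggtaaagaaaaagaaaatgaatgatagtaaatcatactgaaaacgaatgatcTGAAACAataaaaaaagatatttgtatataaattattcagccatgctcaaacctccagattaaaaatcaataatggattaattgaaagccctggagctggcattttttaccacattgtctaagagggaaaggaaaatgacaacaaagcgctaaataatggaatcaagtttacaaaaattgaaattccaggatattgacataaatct
FIG1 promoter, chrII:316718-317017, plus strand: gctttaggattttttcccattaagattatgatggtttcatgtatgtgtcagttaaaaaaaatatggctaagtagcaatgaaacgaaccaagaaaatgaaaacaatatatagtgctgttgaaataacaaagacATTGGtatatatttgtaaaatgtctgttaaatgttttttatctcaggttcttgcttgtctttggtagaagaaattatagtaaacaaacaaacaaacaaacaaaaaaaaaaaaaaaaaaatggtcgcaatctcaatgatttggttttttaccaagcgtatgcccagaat
GCV1 promoter, chrIV:485316-485615, minus strand: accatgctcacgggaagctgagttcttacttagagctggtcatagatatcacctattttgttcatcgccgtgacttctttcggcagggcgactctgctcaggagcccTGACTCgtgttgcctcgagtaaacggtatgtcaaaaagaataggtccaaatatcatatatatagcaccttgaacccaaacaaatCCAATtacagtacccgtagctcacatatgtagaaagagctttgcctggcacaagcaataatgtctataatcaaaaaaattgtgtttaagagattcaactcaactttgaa
YLR108C promoter, chrXII:368075-368374, minus strand: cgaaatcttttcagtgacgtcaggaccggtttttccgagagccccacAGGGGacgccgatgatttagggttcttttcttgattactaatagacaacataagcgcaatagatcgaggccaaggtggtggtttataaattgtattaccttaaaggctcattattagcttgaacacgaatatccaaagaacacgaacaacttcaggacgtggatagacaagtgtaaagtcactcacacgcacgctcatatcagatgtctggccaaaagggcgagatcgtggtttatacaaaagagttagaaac
RCK1 promoter, chrVII:206783-207082, plus strand: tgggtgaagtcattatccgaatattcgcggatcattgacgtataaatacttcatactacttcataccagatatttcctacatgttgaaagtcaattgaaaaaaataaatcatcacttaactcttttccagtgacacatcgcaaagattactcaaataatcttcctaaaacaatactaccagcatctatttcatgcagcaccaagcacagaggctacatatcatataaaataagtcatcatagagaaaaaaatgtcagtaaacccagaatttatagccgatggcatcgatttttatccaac
TIR1 promoter, chrV:174998-175297, plus strand: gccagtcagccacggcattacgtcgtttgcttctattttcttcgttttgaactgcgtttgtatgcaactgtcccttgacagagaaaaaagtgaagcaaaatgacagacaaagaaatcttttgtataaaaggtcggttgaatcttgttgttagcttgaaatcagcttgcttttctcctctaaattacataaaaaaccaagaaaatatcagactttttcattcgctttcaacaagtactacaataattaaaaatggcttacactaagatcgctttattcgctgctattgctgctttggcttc
PRM6 held TGAAACA 156 bases before the start and FIG1 held CCAAT, read in reverse as ATTGG, 118 bases before it. The GCV1 promoter held TGACTC at 143 bases and CCAAT at 59. YLR108C had AGGGG at 203 bases, and RCK1 and TIR1 had none of the 11. These matches are letters in a window, not measured binding.

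Over all 6001 promoters of this length, AGGGG stood in 21.6%. It stood in 36.9% of the 485 promoters of genes that fell and 14.5% of the 449 of genes that rose. GCGATGAG showed the opposite order, with 63 of the 449 rises and 9 of the 485 falls (1.9%) against 3.9% of all. TGACTC stood in 15.6% of rises, 7.4% of falls and 8.0% of all promoters, and ACGCGT in 6.0%, 1.6% and 3.1%. CCAAT, which is short, stood in 41.6% of rises, 43.5% of falls and 43.3% of all. The deposited table also assigns a TATA class to each gene. Of 743 tested genes with a TATA box 31.6% were called, of 3428 with a TATA-like element 15.6%, and of 1777 with neither entry 9.6%. The median normalised counts of these classes were 1295, 910.2 and 284.3, and the part that level plays in their shares was not tested.

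Mating genes gave the largest single rises. PRM6 (YML047C, chrXIII:180017-181075), a pheromone-regulated potassium transporter, stood at 10.02, 13.04 and 8.44 normalised counts in the 3 libraries at 120 min and at 57.3, 59.4 and 54.9 at 180 min. The groups lay far apart, and the change was 2.36 ± 0.50 (SE) on the log2(value + 1) scale (limma adjusted p = 0.000355). The reading frame overlaps YML047W-A, so the reads of the pair cannot be told apart.

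FIG1 (YBR040W, chrII:316968-317864), a membrane protein needed for efficient mating, stood at 64.6, 55.2 and 61.2 counts at 120 min and at 162, 188 and 171 at 180 min, a 2.85-fold rise (log2 1.51 ± 0.24, limma adjusted p = 1.81e-06). AGA1 (YNR044W, chrXIV:703699-705876), the anchor subunit of a-agglutinin, went from 1950, 1765 and 2015 counts to 3550, 3797 and 3728, and PRM1, which acts in plasma membrane fusion, from 388, 296 and 359 to 621, 536 and 590. For each of these genes the lowest library at 180 min exceeded the highest at 120 min, as the naming rule required. The log2 changes were 0.95 ± 0.05 for AGA1 (limma adjusted p = 2.63e-19) and 0.75 ± 0.10 for PRM1 (5.38e-08).

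Of the 7 a-cell genes 6 rose, beside 7.58% of all tested genes, and their median log2 change was 0.30 against 0.00 for all genes. MFA1 (chrIV:1385176-1385286), one of the genes for the pheromone a-factor, stood at 3867, 4232 and 3446 counts at 120 min and at 6327, 6194 and 6755 at 180 min. The change was 0.74 ± 0.08 (limma adjusted p = 1.88e-07). AGA2, the binding subunit of a-agglutinin, went from 1637, 1725 and 1559 counts to 2383, 2311 and 2584, with no overlap (log2 0.56, limma adjusted p = 6.87e-15). MFA2, the other a-factor gene, rose by 0.33 and STE2 by 0.20. BAR1, the protease that degrades alpha-factor, and ASG7 rose as well, although ASG7 lost its call without replicate 1 at 120 min (limma adjusted p = 0.0855) and without replicate 1 or 2 at 180 min (0.071 and 0.0543). STE6, the a-factor exporter, stood at 4964 ± 286 and 4942 ± 77.0 counts and was not called. In bulk RNA of this kind, more cells that transcribe a gene and more RNA per cell cannot be told apart.

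The pheromone-response list, the genes of the receptor pathway and its Ste12 targets, had 10 of 27 members that rose (37.0%) and none that fell, with a median of 0.14. Each fit without 1 library also gave 10 rises. FUS1, required for cell fusion, went from 565, 540 and 520 counts to 749, 687 and 774 (log2 0.44, limma adjusted p = 6.63e-06). FIG2, a cell wall adhesin of mating cells, rose by 0.52, the MAP kinase gene FUS3 by 0.37, the karyogamy factor gene KAR4 by 0.26 and SST2, a negative regulator of the pathway, by 0.20. STE12 itself went from 1368, 1313 and 1345 counts to 1570, 1505 and 1532, a change of 0.19 with no overlap between the times (limma adjusted p = 0.00257). FUS2 (log2 0.48), FAR1 (0.02) and GPA1 (0.07) were not called. TGAAACA stood in the promoters of 15 of the 27 genes, 7 of the 10 that rose and 8 of the 17 others, and in 5 of the 7 a-cell promoters, against 7.5% of all promoters.

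**Figure D2:**
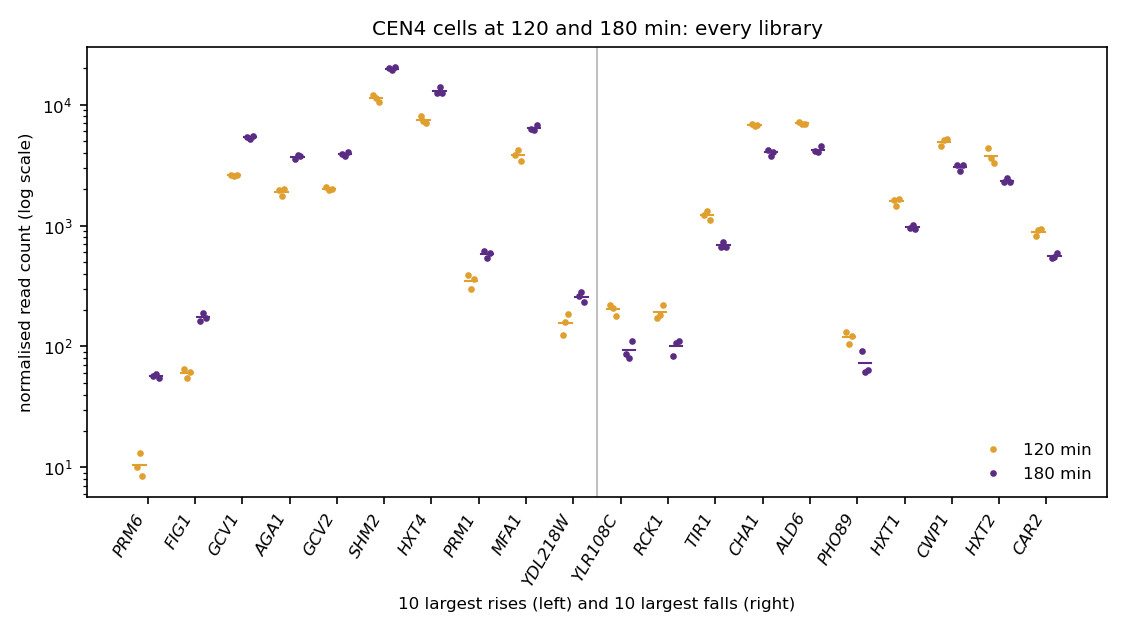
Normalised read counts (log axis) of the 10 largest rises and the 10 largest falls are plotted, a point for each library and a bar for the mean of the 3 libraries at 120 min and at 180 min. GCV1, which rose, had 2587 to 2617 counts at 120 min and 5161 to 5491 at 180 min. TIR1, which fell, had 1108 to 1314 and 660.9 to 729.1. The groups do not overlap in any gene shown, because the rule that chose the genes required it.

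Genes of glycine cleavage and one-carbon supply were the next group of large rises. The glycine cleavage complex splits glycine and passes its carbon to folate, which feeds purine and methionine synthesis. GCV1 (YDR019C, chrIV:484163-485365), its T subunit, stood at 2617, 2587 and 2598 counts at 120 min and at 5427, 5161 and 5491 at 180 min (log2 1.04 ± 0.04, limma adjusted p = 3.16e-28). The spread within each time was small beside this 2.06-fold difference.

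GCV2, the P subunit, went from 2097, 1950 and 2007 counts to 3912, 3727 and 4024 (log2 0.95). GCV3, the H subunit, went from 3998, 4254 and 3851 to 5991, 5762 and 5861 (log2 0.54, limma adjusted p = 1.61e-17). All subunits that are specific to the complex thus moved the same way with no overlap. For GCV1 and GCV2 the naming rule had required this lack of overlap. SHM2, the cytosolic serine hydroxymethyltransferase, went from 12060, 11410 and 10520 counts to 20000, 19320 and 20310 (log2 0.81, limma adjusted p = 1.48e-17). MTD1, a cytosolic folate dehydrogenase, went from 2541, 2447 and 2208 to 3942, 3847 and 3982 (log2 0.71). In the list of 16 glycine, serine and one-carbon genes 9 rose (56.2%) and 2 fell (12.5%), beside 7.58% and 8.24% of all tested genes. The median was 0.18, and 9 rises were also found without each library. SER1 (0.29), ADE3 (0.26), MIS1 (0.19) and SHM1 (0.17) were the other rises. MET13, a methylenetetrahydrofolate reductase, fell by 0.24 and GLY1, the threonine aldolase, fell by 0.20. MET13 lost its call without replicate 1 or 3 at 120 min (limma adjusted p = 0.0613 and 0.0874) or replicate 2 at 180 min (0.0675).

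SER3 and SER33, isoenzymes that start serine synthesis, had changes of -0.05 and -0.03 and were not called. SRG1, the noncoding transcript whose reading through the SER3 promoter is known to repress SER3, fell from 995, 1025 and 1014 counts to 670, 681 and 628 (log2 -0.62). CHA1, the catabolic serine and threonine deaminase, which serine induces, fell from 6970, 6638 and 6780 counts to 4248, 3787 and 4039 (log2 -0.76 ± 0.04, limma adjusted p = 5.95e-26). In both, each library at 180 min was below each at 120 min, as the naming rule required. 
Purine synthesis had the largest share of rises among the lists of 10 or more tested genes, with 12 of 15 members (80.0%), none that fell and a median of 0.31. ADE17 (chrXIII:507502-509280), which completes the route to IMP, went from 11030, 10470 and 9806 counts to 17070, 16220 and 17260 (log2 0.69 ± 0.04, limma adjusted p = 3.09e-15). ADE1, an enzyme in the middle of the route, went from 6754, 6418 and 5766 to 10290, 10320 and 10490 (log2 0.72). The 2 groups of libraries were separate for both genes, as the naming rule required. ADE2 rose by 0.57, ADE13 by 0.53, ADE5,7 by 0.52, ADE4, the first enzyme of the route, by 0.45, ADE8 by 0.36 and ADE6 by 0.31. On the branches from IMP, rises were 0.31 for IMD3, 0.21 for GUA1, 0.16 for ADE12 and 0.12 for IMD4. Without replicate 3 at 120 min ADE12 and IMD4 lost their calls (limma adjusted p = 0.0576 and 0.0527), and IMD4 did so without replicate 2 at 180 min (0.122). ADE16, the isoenzyme of ADE17, had a change of -0.07, HPT1, which salvages bases, 0.09 and IMD2 0.12, and none of these was called. Summed over the list, the counts were 84650, 80120 and 75910 at 120 min and 107000, 105000 and 105800 at 180 min. Leaving out 1 library gave 10 to 14 rises. The Gcn4 and Bas1 motif TGACTC stood in the promoters of 7 of the 12 that rose and of none of the 3 others, against 8.0% of all promoters. In the one-carbon list it stood in 10 of the 16 promoters, 7 of the 11 called genes and 3 of the 5 others.

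Sulfur genes went the other way. Of 21 genes of methionine synthesis and sulfur uptake 13 fell (61.9%) and none rose, beside 8.24% of all genes that fell, and the median was -0.28. MMP1, a transporter of S-methylmethionine, fell from 630, 634 and 691 counts to 451, 445 and 429 (log2 -0.56, limma adjusted p = 6.34e-13). MET14, the APS kinase of sulfate assimilation, fell from 644, 617 and 615 to 431, 466 and 437 (log2 -0.49, limma adjusted p = 6e-10). The times did not overlap in either gene. SAM2, an S-adenosylmethionine synthetase, fell by 0.46, MET3, the ATP sulfurylase, by 0.40, MET2 by 0.39, the transporter genes SAM3 by 0.38 and MUP1 by 0.34, the sulfite reductase genes MET5 by 0.34 and MET10 by 0.28, and MET6, the methionine synthase, by 0.22. Between 12 and 13 members fell in the fits without 1 library, and 1 rose without replicate 1 at 120 min. CACGTG stood in 5 of the 21 promoters, 3 of the 13 that fell and 2 of the 8 others, against 2.9% of all.

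Other nitrogen genes were mixed. In the 36 amino acid synthesis genes under Gcn4, 7 rose (19.4%) and 1 fell (2.8%), beside 7.58% and 8.24% of all tested genes. ARG1 (0.39) and ILV1 (0.20) were among the rises. The single fall was not called without replicate 1 or 2 at 120 min or replicate 2 or 3 at 180 min. Of 9 lysine genes 2 rose (22.2%), LYS4 by 0.24, and 1 rose without replicate 1 or 3 at 180 min. Of 27 genes under nitrogen catabolite repression 3 rose and 3 fell, shares near those of all genes, and 1 fell without replicate 2 at 180 min. GLN1, glutamine synthetase, rose from 10010, 10060 and 9689 counts to 13900, 13730 and 13180 (log2 0.46, limma adjusted p = 1.38e-17). AGP1, a broad amino acid permease, rose from 2040, 1913 and 2055 to 2805, 2946 and 2757 (log2 0.50). Among the 16 permeases AGP1 was the 1 member that rose and 4 fell, a number that was 2 without replicate 3 of the 120 min group. DIP5, which imports glutamate and aspartate, fell by 0.62. CAR2, an arginine-degrading transaminase, fell by 0.66, with an overlap of its frame by YLR437C-A.

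Stress and reserve genes fell in part after rises in the step before. The stress-response list, mainly targets of Msn2 and Msn4, had 12 of 31 members that fell (38.7%) and none that rose, with a median of -0.20. In the step before, from 60 to 120 min, all 31 had risen with a median of 0.76, while 22.5% of all tested genes rose. Both steps contain the 120 min libraries, so the earlier rise and the later fall are not independent. The summed counts of the 31 genes ranged from 17760 to 22190 before beta-estradiol and from 55290 to 60740 after 60 min. The sums were 84560, 88790 and 96560 for the libraries of 120 min, and 78220, 82000 and 78880 for those of 180 min. The sums at 180 min were thus below each sum at 120 min and still above each sum at 60 min. The count of falls was 6 without replicate 3 of the 120 min group, the library with the highest sum.

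HSP104, the disaggregase, fell from 4259, 4660 and 5138 counts to 3405, 3576 and 3446 (log2 -0.43, limma adjusted p = 7.1e-06). It was counted in the protein folding list, not in the stress-response list. SOL4, a 6-phosphogluconolactonase, fell from 717, 755 and 801 to 543, 539 and 529 (log2 -0.49), with no overlap. FMP45 fell by 0.52, RTC3 by 0.37 and USV1 by 0.34. CTT1, the cytosolic catalase, had a change of -0.23 and HSP12 of -0.18, and neither was called. MSN4, the gene of one of these factors, rose by 0.22. AGGGG stood in 18 of the 31 promoters (58.1%), 8 of the 12 that fell and 10 of the 19 others.

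Of the 20 genes of glycogen and trehalose metabolism 12 fell (60.0%) and none rose, with a median of -0.23, and 10 to 12 fell without 1 library. GSY1, a glycogen synthase, fell from 679, 721 and 741 counts to 410, 496 and 511 (log2 -0.60, limma adjusted p = 2.49e-07). GPH1, glycogen phosphorylase, fell by 0.41 and PGM2, phosphoglucomutase, by 0.39. Synthesis and breakdown enzymes were therefore both among the falls. Protein folding genes had 15 of 26 members that fell (57.7%), with 12 to 18 such falls when 1 library was left out, and 1 that rose. SSA2 fell from 12340, 12960 and 12870 counts to 9300, 8725 and 9005 (log2 -0.50) and HSP82 by 0.52, although both have near-identical copies (SSA1 and HSC82) with which they may share reads. SSA3, an Hsp70 gene of starved cells, was the single rise, from 968, 1092 and 1199 counts to 1593, 1716 and 1563 (log2 0.58, limma adjusted p = 2.22e-12).

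Antioxidant genes had 9 of 18 members that fell and none that rose (median -0.13, 7 to 8 falls without 1 library). AHP1, a peroxiredoxin, fell from 16730, 18480 and 17320 counts to 13010, 11620 and 13030 (log2 -0.48). GPX2, a glutathione peroxidase, fell from 1731, 1774 and 1629 to 1102, 1120 and 1140 (log2 -0.61). SOD1, the cytosolic superoxide dismutase, fell by 0.25. Of 13 osmotic and glycerol genes 2 fell (15.4%) and none rose, while 8.24% of all genes fell and 15.8% were called. Their median was -0.09, with 10 members below 0 and 3 above. GPD1 fell by 0.38, and 4 members fell without replicate 1 at 120 min. RCK1 (YGL158W, chrVII:207033-208571), a kinase gene of the oxidative stress response, fell from 170, 182 and 221 counts to 84.0, 106 and 112 (log2 -0.92 ± 0.13, limma adjusted p = 3.4e-07). Its times did not overlap, as the naming rule required.

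The largest fall under the naming rule was YLR108C (chrXII:366667-368124), a gene of unknown function, from 219, 208 and 179 counts to 86.9, 80.0 and 111 (log2 -1.13 ± 0.11, limma adjusted p = 7.31e-13). TIR1 (YER011W, chrV:175248-176012), a cell wall mannoprotein of cold and low oxygen, fell from 1226, 1314 and 1108 counts to 661, 729 and 670 (log2 -0.82, limma adjusted p = 1.92e-17). Both had separate groups, as the naming rule required. TIR1 had fallen at each earlier step too, with means of 8091, 4703 and 3017 at the first 3 times. In the list of 14 oxygen- and heme-regulated genes 6 fell (42.9%, beside 8.24% of all genes) and none rose (median -0.20). The falls included TIR3 (-0.55), the repressor gene ROX1 (-0.49) and CYC7, the minor cytochrome c isoform, from 209, 246 and 234 counts to 138, 167 and 148 (log2 -0.61, limma adjusted p = 3.41e-07).

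Glucose transport showed opposite changes within 1 family. HXT4, a high-affinity hexose transporter, rose from 8066, 7340 and 7003 counts to 12470, 14040 and 12460 (log2 0.80 ± 0.07, limma adjusted p = 6.5e-08). HXT1, the low-affinity transporter of high glucose, fell from 1639, 1452 and 1656 to 959, 1019 and 935 (log2 -0.70, limma adjusted p = 1.52e-07), and HXT2, another high-affinity transporter, from 4412, 3641 and 3289 to 2275, 2465 and 2289 (log2 -0.68). Groups did not overlap in any of these, as the naming rule required. Of 18 transporters and sensors 2 rose (11.1%) and 3 fell (16.7%), beside 7.58% and 8.24% of all tested genes. A near-identical copy exists for 8 of the 18. HXT2 had its highest mean at 0 min, 18750 ± 614 counts, and 7883 ± 694 at 60 min. Among 27 glucose-signalling regulators 3 rose and 1 fell, a called share of 14.8%, near the 15.8% of all genes. The rises included MTH1, a corepressor of hexose transporter genes, by 0.41. GLK1, glucokinase, fell by 0.43 and is the 1 glycolysis gene of 17 that fell (5.9%), in a frame that overlaps another. Without replicate 3 at 120 min 2 glycolysis genes fell. FBA1, aldolase, rose from 84960, 86530 and 83050 counts to 93510, 90580 and 92650 (log2 0.12, limma adjusted p = 0.000113), 1 of 4 glycolysis rises (23.5% of the 17). None of 6 GAL genes was called, but 1 rose without replicate 3 at 120 min.

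ALD6, the cytosolic acetaldehyde dehydrogenase, fell from 7205, 6909 and 6964 counts to 4098, 4078 and 4542 (log2 -0.73 ± 0.05, limma adjusted p = 1.76e-12), and the mitochondrial ALD4 by 0.43, while PDC6, a minor pyruvate decarboxylase, rose by 0.58. MAE1, the malic enzyme, rose from 2200, 1880 and 2032 to 3277, 3175 and 3309 (log2 0.68), in a frame that overlaps YKL030W. PCK1, which starts gluconeogenesis, rose by 0.42. Genes of unknown function with large rises were YDL218W, from 124, 159 and 187 counts to 260, 280 and 234 (log2 0.73), and YGL108C (0.67), which lost its call without replicate 3 at 120 min (limma adjusted p = 0.0608) or replicate 3 at 180 min (0.0543).

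Respiratory genes had small rises in part of their members. Of 38 genes of oxidative phosphorylation 14 rose (36.8%) and none fell (median 0.10), for example COX12 (0.20), ATP2 (0.18) and QCR2 (0.18). Of 20 citric acid cycle genes 8 rose and none fell (median 0.05), with SDH4 at 0.21 and LSC2 at 0.20. HAP4, the activator subunit of the Hap complex that acts on such genes, rose by 0.20. Single libraries carried part of these counts. Oxidative phosphorylation had 7 rises without replicate 1 at 180 min, and 8 without replicate 1 at 120 min or replicate 3 at 180 min. The citric acid cycle had 4 without replicate 1 at 180 min, and 5 without replicate 1 or 2 at 120 min or replicate 3 at 180 min. CCAAT stood in 32 of the 38 oxidative phosphorylation promoters, against 43.3% of all promoters. It stood in 12 of the 14 that rose and 20 of the 24 others, so it did not set the rises apart.

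The translation machinery split by class. Of 137 ribosomal protein genes 57 fell (41.6%) and none rose, with changes from -0.56 to 0.19 and a median of -0.09, and 96 of them have a near-identical copy. Their summed counts were 2252000, 2373000 and 2216000 at 120 min and 2118000, 2155000 and 2070000 at 180 min, which did not overlap. The count of falls was 21 without replicate 2 at 120 min, 26 without replicate 3 at 180 min and 37 without replicate 2 at 180 min. Scaling each library to the same total in place of the authors' size factors gave 44.

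Ribosome biogenesis genes, which make and process rRNA, had 19 of 55 members that rose (34.5%) and none that fell (median 0.09). DBP2 rose by 0.34 and DBP3 by 0.20, both RNA helicases. This count was 6 without replicate 3 at 120 min and 12 without replicate 2 at 180 min. GCGATGAG stood in 27 of the 55 promoters, 13 of the 19 that rose and 14 of the 36 others. Of 19 genes of RNA polymerases I and III 5 rose (26.3%), beside 7.58% of all genes. This count was 1 without replicate 3 at 120 min and 3 without replicate 2 at 120 min or replicate 1 at 180 min. Of 29 translation factors 6 rose (20.7%) and 1 fell (3.4%), among the rises YEF3 (0.17) and RPG1 (0.16). There were 3 rises without replicate 3 at 120 min. No fall was called without replicate 1 or 2 at 120 min or replicate 2 or 3 at 180 min. Of 52 mitochondrial ribosome genes 3 rose (5.8%), a share below the 7.58% of all genes. Their median was 0.06, with 40 members above 0 and 12 below.

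Proteasome genes had 16 of 33 members that fell (48.5%) and none that rose (median -0.10), for example RPN8 by 0.21 and PRE1 by 0.17. Leaving out replicate 2 at 120 min left 9 falls, and leaving out replicate 1 or 2 at 180 min left 10. Of 31 autophagy genes 5 fell (16.1%) and none rose. Of all tested genes 15.8% were called and 8.24% fell, so the called share was near that of all genes and the share of falls above it. The autophagy median was -0.07, with 24 members below 0 and 7 above. The count of autophagy falls was 3 without replicate 1 or 2 at 120 min. It was 2 without replicate 3 at 120 min or replicate 1 or 3 at 180 min.

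Cell-cycle lists differed in direction. Of 31 G1/S genes, those induced at the start of the cycle, 18 rose (58.1%), none fell and all 31 had values above 0 (median 0.19), with 14 to 17 rises in the fits without 1 library. CLN2, a G1 cyclin, went from 1681, 1708 and 1757 counts to 2104, 2061 and 2144 (log2 0.29, limma adjusted p = 1.36e-06). RNR1, the large subunit of ribonucleotide reductase, went from 5743, 5347 and 5844 to 6872, 6843 and 6869 (log2 0.28, limma adjusted p = 2.69e-09). Neither gene had overlapping groups. YOX1, a repressor of M/G1 transcription, rose by 0.32 and the cyclin gene PCL2 by 0.27. The MBF motif ACGCGT stood in 15 of the 31 promoters, 8 of the 18 that rose and 7 of the 13 others, and CGCGAAA in 3.

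Of 19 G2/M genes 8 fell (42.1%) and none rose (median -0.14, 6 to 11 falls without 1 library). KIN3 fell by 0.30, the septum chitin synthase gene CHS2 by 0.22 and the myosin gene MYO1 by 0.20. CLB2, the main mitotic cyclin, had a change of -0.14 and was not called (limma adjusted p = 0.0522). The 20 M/G1 and daughter-cell genes had 6 rises and 2 falls, with a median of 0.01. DSE1, a daughter-specific cell separation gene, rose from 3919, 3468 and 3738 counts to 5088, 5128 and 5139 (log2 0.47, limma adjusted p = 4.97e-14), DSE2 by 0.44 and SCW11 by 0.30, while DSE4 fell by 0.26. The 10 histone genes, 6 of which have near-identical copies, and the 5 condensin genes each had no call and a median of -0.01. Of 25 meiosis genes 1 fell, a call that was kept only without replicate 2 at 180 min among the 6 omissions, and IME1, the inducer of meiosis, stood at 184 and 194 counts.

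The cell wall list had 8 of 21 members that rose (38.1%) and 1 that fell (4.8%), with a median of 0.10. Among the rises were SCW10 by 0.35 and TIP1 by 0.21. CWP1, a wall mannoprotein, was the fall (2 fell without replicate 3 at 120 min), from 4562, 5121 and 5162 counts to 3154, 2827 and 3161 (log2 -0.70). Its means over the course were 1505, 4272, 3267, 4948 and 3048 counts in order of time, so that it alternated. Metal and phosphate genes were lower in part. Of 26 iron genes 8 fell (30.8%) and 1 rose (3.8%), with FRE1, a ferric reductase, at -0.43, ISU2 at -0.39 and ATX1 at -0.36. Of 16 phosphate genes 6 fell (37.5%) and none rose, a count of 3 without replicate 2 at 180 min. PHO89, a sodium-phosphate transporter, fell from 131, 105 and 121 counts to 91.7, 61.9 and 63.9 (log2 -0.73 ± 0.13, limma adjusted p = 8.68e-05). Its times did not overlap, as the naming rule required. Of 27 ergosterol genes 2 rose (7.4%) and 4 fell (14.8%), beside 7.58% and 8.24% of all genes. The count of falls was 2 without replicate 2 or 3 at 180 min, and that of rises 1 without replicate 3 at 120 min or replicate 2 at 180 min. OLE1, the fatty acid desaturase, rose by 0.41 and CHO2, a phospholipid methyltransferase, fell by 0.33.

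Among the remaining lists, 2 of 13 pyruvate-to-acetate genes rose and 3 fell (15.4% and 23.1%, beside 7.58% and 8.24% of all genes), and 4 of 15 drug resistance genes fell and 1 rose (26.7% and 6.7%), a rise that was not called without replicate 2 at 120 min. Of 12 fatty acid and phospholipid genes 1 rose and 1 fell, a share near that of all genes. The other counts rested on single libraries. Of 15 glyoxylate and gluconeogenesis genes 3 rose, and 1 did so without replicate 2 at 120 min or replicate 2 or 3 at 180 min. None of these 15 fell, but 1 did without replicate 1 at either time. Of 17 fatty acid oxidation genes 2 rose (11.8%), and 1 without replicate 2 at either time. Of 10 zinc genes 1 rose and 2 fell; no rise was called without replicate 2 at 180 min, no fall without replicate 2 or 3 at 180 min, and 1 fall without replicate 1 or 2 at 120 min. Of 22 thiamine and vitamin B6 genes 3 rose (13.6%) and 2 fell (9.1%), with 1 fall without replicate 1 or 3 of either time. Of 13 DNA damage genes 1 rose (7.7%) and 2 fell (15.4%). The rise was called only when all libraries were used or replicate 1 at 120 min was left out. Without replicate 2 at either time 1 fall was left. None of the 11 tested PAU genes was called, but 1 rose without replicate 1 at 120 min and 1 fell without replicate 3 at 180 min. In all, the 49 lists held 1113 tested genes, of which 371 were called, beside 15.8% of all 5948 tested genes. The lists were chosen with earlier results of these data known, so no conclusion is drawn from this count.

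**Figure D3:**
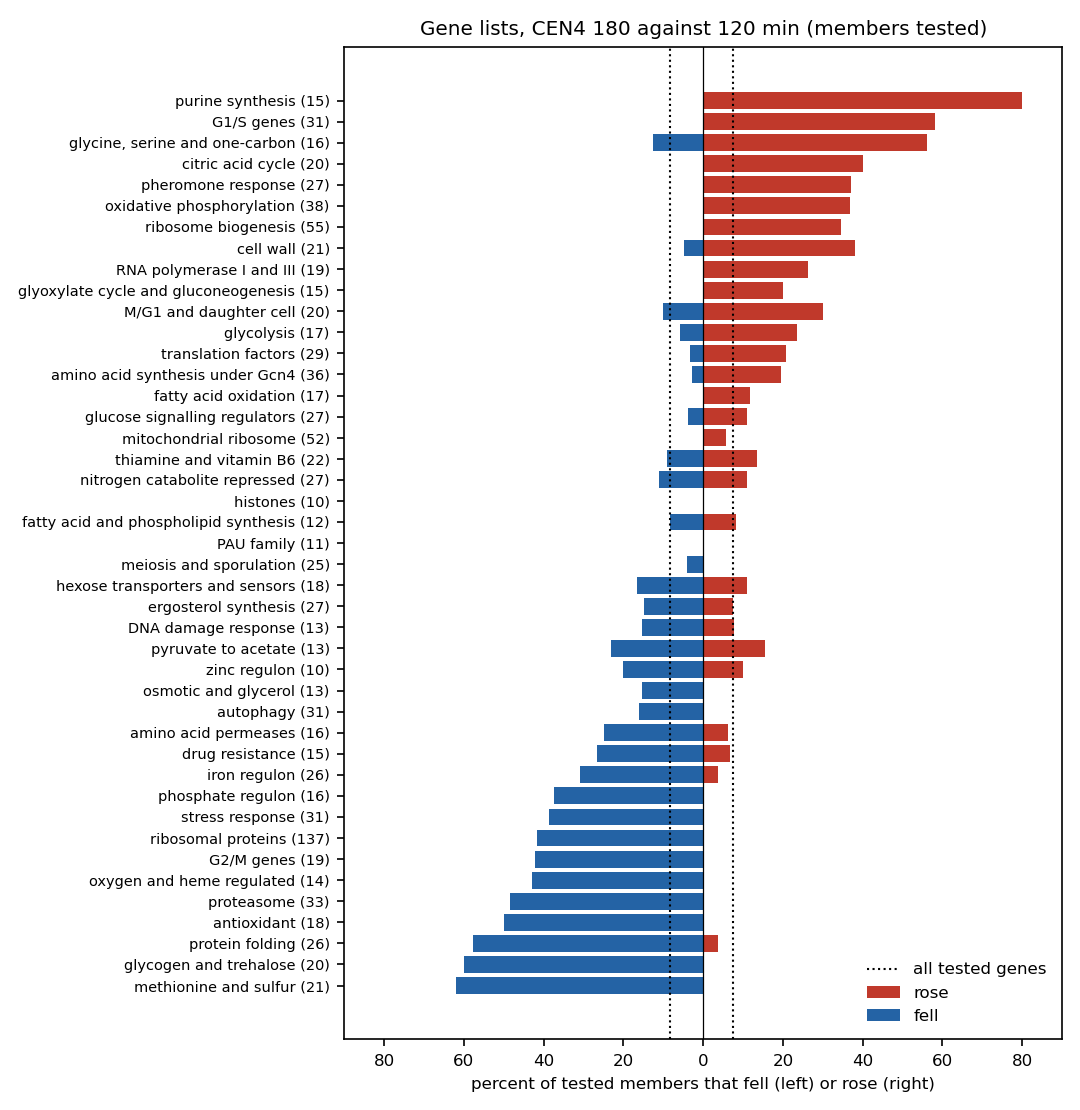
For each list with at least 10 tested genes, bars give the percent of its tested members that rose and that fell between 120 and 180 min in CEN4 cells, and dotted lines the share of all tested genes (7.58% and 8.24%). Purine synthesis (80.0% rose) lies at one end and methionine and sulfur genes (61.9% fell) at the other.

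The step was also set beside the one before it, CEN4 120 against 60 min. The earlier step had more calls, 2730 (45.9%), of which 1341 were rises (22.5%) and 1389 falls (23.4%), and the steps from 0 to 30 and from 30 to 60 min had 3786 and 1791. Both steps contain the 120 min libraries, so they are not independent, and the difference between them was tested directly as a change of pace. It was called for 1751 genes (29.4%), 872 with a higher change in the last step (14.7%) and 879 with a lower one (14.8%). The 120 min libraries enter both steps of this contrast, so a deviation shared by that group would appear as a change of pace. Leaving out 1 library gave 1319 to 1769 calls. Stress genes had 27 of 31 members with a lower change and none with a higher one, glycogen and trehalose genes 14 of 20, protein folding genes 23 of 26 and oxidative phosphorylation genes 32 of 38. Ribosome biogenesis genes, of which 52 of 55 fell from 60 to 120 min, had 47 with a higher change, and translation factors 23 of 29. Purine genes had 13 of 15 with a higher change and the a-cell genes 6 of 7.

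Among single genes, OLE1 had a mean of 23090 ± 1906 counts at 60 min, 15030 ± 1612 at 120 min and 19910 ± 1257 at 180 min, so that a fall was followed by a rise (change of pace 1.03, limma adjusted p = 1.76e-05). HXT3 had 12410 ± 920, 6846 ± 821 and 7493 ± 668 counts at these times, and the last step was not called while the change of pace was (1.00, limma adjusted p = 5.87e-05). GPH1 went the other way, with 386 ± 42.9, 891 ± 110 and 670 ± 32.3 counts (change of pace -1.61, limma adjusted p = 2.17e-11). MAE1 (1.14), snR3 (1.18) and BSC1 (1.14) were the other named higher cases and DAD4 (-1.66), CYC7 (-1.58), MIX14 (-1.55) and YGR174W-A (-1.52) the other lower ones. The DAD4 frame overlaps YDR320W-B. GCV1 had 2114 ± 88.6, 2601 ± 14.9 and 5360 ± 175 counts, a rise in each step. MFA1 had its lowest mean at 60 min, 3271 ± 133, and its mean at 180 min, 6425 ± 293, lay near that of 0 min, 6530 ± 466.

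**Figure D4:**
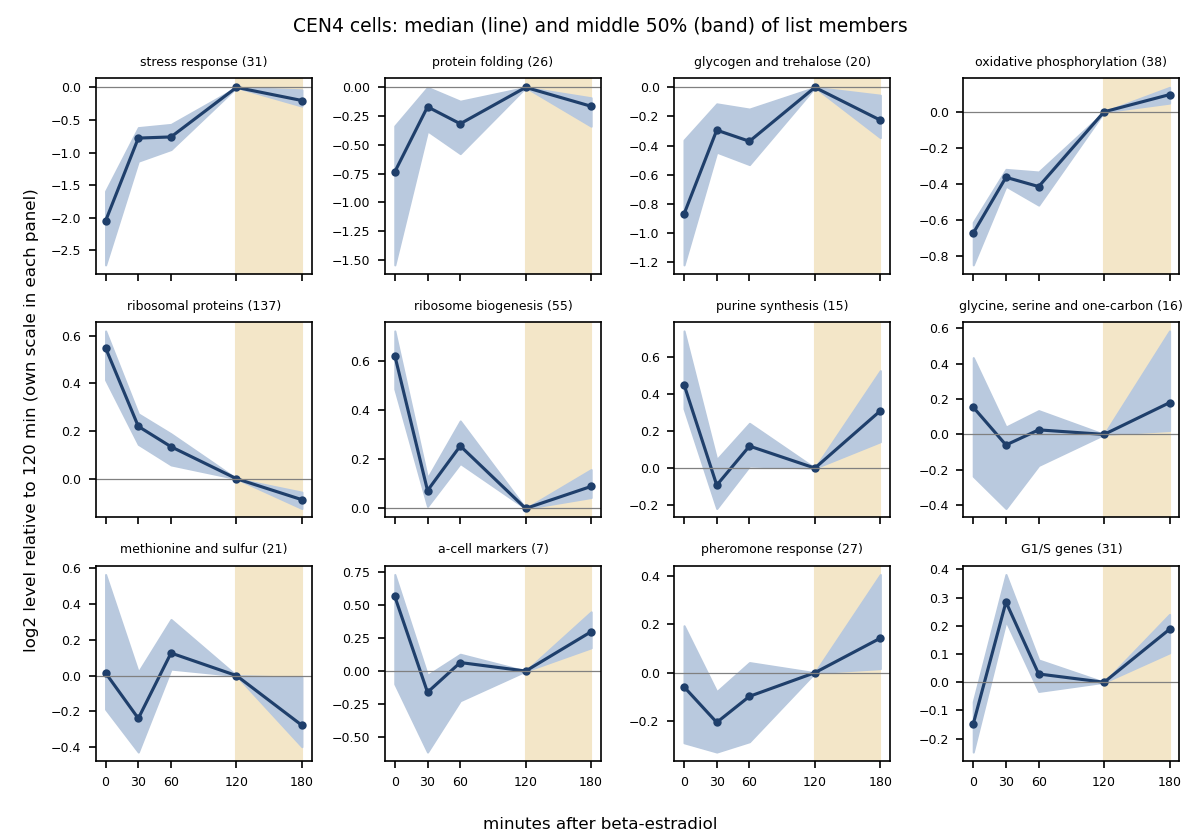
Lines give the median and bands the middle 50% of the members of 12 gene lists over the 5 times of CEN4 cells, as the log2 level relative to 120 min, with the last step shaded and an own scale in each panel. The stress line climbs from -2.05 at 0 min to 0 at 120 min and stands at -0.20 at 180 min, and the purine line ends at 0.31.

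The same 60 min in cen4- cells, which share no library with the CEN4 step, had 1465 calls (24.6%), 699 rises (11.8%) and 766 falls (12.9%). Called in both strains were 424 genes, 45.1% of the CEN4 calls and 28.9% of the cen4- calls. Of these 169 rose in both, 184 fell in both and 71 moved in opposite directions, 21 with a rise in CEN4 and 50 with a fall. Across the 5948 genes, which are not independent replicates, Pearson's r between the changes of the strains was 0.237. The difference of the step between the strains was tested as an interaction and was called for 741 genes (12.5%), 360 with the higher change in CEN4 (6.05%) and 381 with the lower change (6.41%). It was called for 301 of the 941 CEN4 calls and for all 71 opposite ones.

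Purine synthesis genes rose in both strains, 12 of 15 in CEN4. In all, 11 of the 15 genes rose in cen4- cells with a median of 0.33, and 1 differed between the strains. For ADE17 the cen4- change was 0.67 and the strain difference 0.02 ± 0.06. Other groups differed. All of the 6 a-cell genes with a called difference were higher in CEN4, 4 of the 7 having fallen in cen4- cells (median -0.13). Of the 27 pheromone genes 11 had a higher and 1 a lower change in CEN4. The stress list had a median of 0.29 in cen4- cells, with 18 rises and 1 fall, and 21 of its 31 genes had a called lower change in CEN4. Methionine and sulfur genes had a lower change in 12 of 21 cases, protein folding genes in 12 of 26 and antioxidant genes in 12 of 18. Of the 137 ribosomal protein genes 57 fell in CEN4, a count that was 21 without replicate 2 at 120 min, and 122 fell in cen4- cells with a median of -0.28. In all 81 had a higher (less negative or positive) change in CEN4. G1/S genes had a higher change in CEN4 in 9 of 31 cases and histone genes in 6 of 10, where 8 histone genes fell in cen4- cells.

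GCV2 in cen4- cells went from 1161 ± 66.5 to 1206 ± 43.4 counts, against 2018 ± 73.8 to 3887 ± 150 in CEN4 (strain difference 0.89 ± 0.07, limma adjusted p = 5.16e-16). MFA1 went from 1908 ± 81.6 to 1748 ± 22.8 (difference 0.87 ± 0.11, limma adjusted p = 5.92e-06). SOL4 rose from 1695 ± 33.5 to 2325 ± 53.0 in cen4- cells, where it fell in CEN4 (difference -0.95 ± 0.10, limma adjusted p = 1.66e-08), and CYC7 rose from 1073 ± 82.6 to 1339 ± 64.8 (difference -0.93 ± 0.13, limma adjusted p = 1.6e-07). The levels at 120 min already differed between the strains in these genes.

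**Figure D5:**
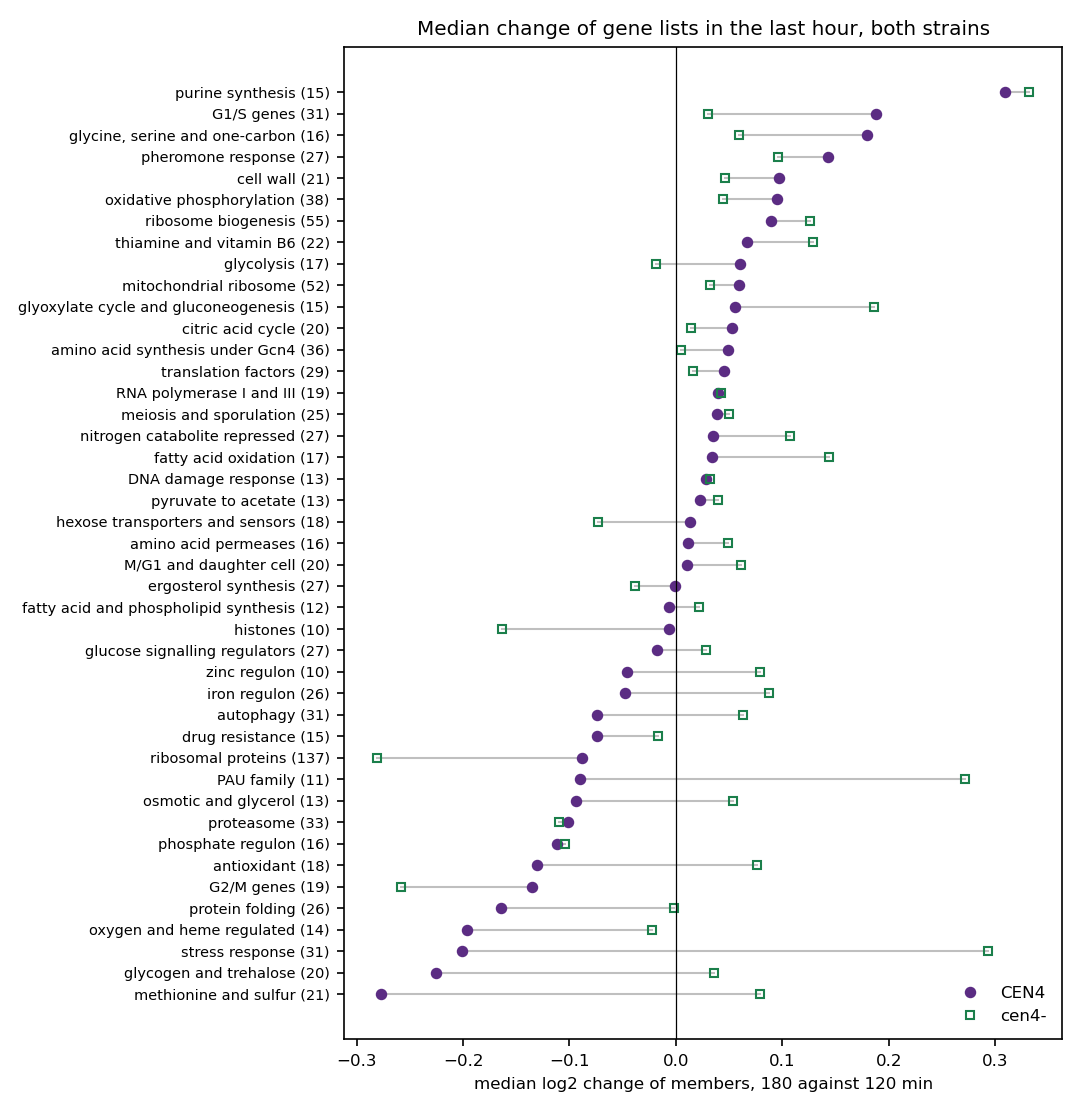
Each row is 1 gene list with at least 10 tested genes, with the median log2 change of its members from 120 to 180 min in CEN4 cells (circle) and in cen4- cells (square). Purine synthesis lies at 0.31 and 0.33, while the stress list lies at -0.20 in CEN4 and 0.29 in cen4- cells.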

How the data were processed

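The deposited table gives a signal for every gene in every library: per the labels, the authors divided read counts by DESeq2 size factors. The submitters' processing notes name STAR 2.6.1, DESeq2 and the build R64 (sacCer3). How reads were counted, with or without strand, and against which annotation release is not given in the sources used here. Reads of genes that overlap, on either strand, therefore cannot be told apart. Whole reads were recovered for 100% of values (within 1e-06 of a whole number), and edgeR 4.0.16 on those reads called 954 genes. Counting intervals and limits cover counting error only. Of 7127 genes, 350 had no read and 6047 matched R64; 406 have a near-identical copy (at least 90% identity over at least 50% of the coding length).

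Tests used limma 3.58.1 in R 4.3.3 (trend and robust) on log2(value + 1), with a mean for each of the 10 groups of 3 libraries and genes with a mean of at least 10. The pseudocount of 1 understates changes of low genes. The strain difference and the change of pace were contrasts of the same fit, and p-values were adjusted over all tested genes. The procedure was tested on simulated data. Named genes were the 15 largest rises and falls with no overlap and at least 50 normalised counts, up to 4 called members of each list, the 10 called genes of highest mean, the 8 largest strain differences and the 5 largest changes of pace in each direction, and the marker genes. Other members and transcripts of the pathways described were chosen after their values were seen. The comparison and the gene lists were chosen with earlier results of these data known. Promoters came from R64 coding starts. Of the items searched or named by these rules, 1 motif and 1 gene are not reported here. Replicate numbers of the 2 strains were checked for pairing and did not pair the samples. Alternatives were DESeq2 1.42.0, other scalings, filters and weights, and leaving out each library.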

Additional observations from a re-analysis of the deposited data

Results flagged for a closer look

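These are genes whose change between 120 and 180 min differed between CEN4 and cen4- cells by the interaction test (limma, adjusted over 5948 genes), the largest in each direction. Each value below is the CEN4 change minus the cen4- change on the log2 scale.

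Among genes described above, FIG1 differed by 1.11 (1.51 in CEN4 and 0.40 in cen4-, limma adjusted p = 0.0187), GCV2 by 0.89, MFA1 by 0.87 and HXT4 by 0.78 (0.80 and 0.02, limma adjusted p = 2.05e-05). CYC7 differed by -0.93 and SOL4 by -0.95, both with a fall in CEN4 and a rise in cen4- cells.

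Small RNAs and short frames made up several of the others. The small nuclear RNA snR19 differed by 0.97 (0.32 in CEN4 and -0.65 in cen4-, limma adjusted p = 0.0284) and the small nucleolar RNA snR189 by 0.86 (0.05 and -0.81, limma adjusted p = 0.0027). YCR095W-A differed by 0.79, YHL015W-A by -0.999 and YCL048W-A by -0.98. MAL12, a maltase gene with the near-identical copy MAL32, differed by 0.78 (limma adjusted p = 0.0483).

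In the other direction PAU3, a seripauperin gene with near-identical copies, differed by -1.57 (-0.85 in CEN4 and 0.72 in cen4-, limma adjusted p = 0.019). This p belongs to the difference, and the PAU3 change was not called in either strain by itself. LSO1, a gene of the iron response, differed by -1.48 (-0.43 and 1.04, limma adjusted p = 0.0195). SHC1, a chitin synthase activator of sporulating cells, differed by -1.09 (-0.32 and 0.76, limma adjusted p = 0.000165). TFS1, an inhibitor of carboxypeptidase Y, differed by -0.88 (-0.37 and 0.51, limma adjusted p = 1.53e-05).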

How the results depend on the processing

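Every alternative left the number of calls within 1.5 times of the 941 reported: 667 from the 6 libraries alone, 720 with array weights, 869 with DESeq2, 932 after scaling to the same total (536 rises and 396 falls), 947 with TMM and 954 with edgeR (395 and 559), and 669 to 967 without 1 library. Of 3429 values of single called genes under the alternatives 201 lost their call and 0 changed sign, and of 202 such genes 146 kept their call in each alternative that gave a p. PRM6 and FIG1 have no adjusted p from DESeq2. The strain difference had 597 to 798 calls without 1 library, and its split of 360 higher and 381 lower changes was 289 and 452 after scaling to the same total. With a replicate block it had 784, of which 724 were among the 741 of the fit without the block, but same-numbered libraries of the strains did not deviate together (correlations -0.033 to 0.06). The 120 and 180 min libraries of CEN4 share no replicate number in their titles, and the labels do not say which came from the same experiment, so the 941 calls rest on an unpaired fit. The change of pace had 1319 to 1769 calls. Depth limits the low genes: the standard error was 0.50 for PRM6 and 0.04 for GCV1.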
